A study of Rattus norvegicus with 4 samples.

Results

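Fatty acid oxidation and ketogenesis were examined through 8 genes, *Ppara*, *Cpt1a*, *Cpt2*, *Acadm*, *Hadha*, *Ehhadh*, *Pdk4* and *Angptl4*, out of 16999 named genes measured in rat liver. They were chosen by name for their roles in the pathway, and each was found as 1 row in every library. Wild-type rats were given 4.5% sevoflurane or 6% desflurane, which are both halogenated ethers used for general anesthesia. For each agent, 1 control rat was decapitated on losing consciousness (0 h) and 1 rat was anesthetized for 6 h, so there were 4 livers and 4 RNA-seq libraries. The control rats were thus exposed to the same agent until loss of consciousness, and no liver came from a rat that inhaled none. The livers of controls and anesthetized rats were collected 6 h apart, so time under anesthesia and hour of the day cannot be told apart. No group had a replicate, and nothing below carries a replicate error except the fit over all 4 libraries.

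In a fasting liver, fatty acids reach the mitochondria as acylcarnitines, are shortened there by beta-oxidation, and leave in part as ketone bodies. Carnitine palmitoyltransferase 1A, the product of *Cpt1a*, sits in the outer mitochondrial membrane, is inhibited by malonyl-CoA and is regarded as the main control point of entry. Many genes of the pathway are targets of the nuclear receptor PPAR alpha, which binds DNA together with a retinoid X receptor and is activated by fatty acids.

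Promoter sequences are shown for the 4 genes whose levels differed more than 2-fold between the 6 h and the 0 h library of at least 1 agent. The 300 bases run from 250 before to 50 after the start site, 5′ to 3′ on the strand of the gene, and come from RefSeq on the rat assembly GRCr8, where all 8 genes were matched. Capitals mark matches, on either strand, to 3 of the searched motifs: the GC box, spelled GGGCGG, the CCAAT box, spelled as it is named, and the TATA box, spelled TATAAA. *Ppara* lies at chr7:118712357-118712656 on the plus strand, *Cpt1a* at chr1:209995910-209996209 on the plus strand, *Pdk4* at chr4:34568280-34568579 on the minus strand and *Angptl4* at chr7:15258632-15258931 on the minus strand.
Ppara: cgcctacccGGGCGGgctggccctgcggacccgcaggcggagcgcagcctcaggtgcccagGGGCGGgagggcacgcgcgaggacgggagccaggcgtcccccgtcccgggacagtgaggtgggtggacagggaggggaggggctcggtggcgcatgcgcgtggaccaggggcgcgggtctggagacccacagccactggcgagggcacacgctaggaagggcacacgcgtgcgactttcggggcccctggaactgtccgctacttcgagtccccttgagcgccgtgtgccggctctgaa
Cpt1a: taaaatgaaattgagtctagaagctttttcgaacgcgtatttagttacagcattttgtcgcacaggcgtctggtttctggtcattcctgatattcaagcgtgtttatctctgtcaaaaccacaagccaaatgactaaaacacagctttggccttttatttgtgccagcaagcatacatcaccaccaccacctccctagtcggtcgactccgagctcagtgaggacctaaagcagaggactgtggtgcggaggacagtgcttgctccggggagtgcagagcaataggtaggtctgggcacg
Pdk4: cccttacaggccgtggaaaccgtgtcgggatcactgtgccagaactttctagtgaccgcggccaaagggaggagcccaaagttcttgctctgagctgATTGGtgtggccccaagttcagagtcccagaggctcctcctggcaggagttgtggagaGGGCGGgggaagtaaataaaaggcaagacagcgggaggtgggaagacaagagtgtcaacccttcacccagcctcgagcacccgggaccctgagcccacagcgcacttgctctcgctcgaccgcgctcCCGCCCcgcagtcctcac
Angptl4: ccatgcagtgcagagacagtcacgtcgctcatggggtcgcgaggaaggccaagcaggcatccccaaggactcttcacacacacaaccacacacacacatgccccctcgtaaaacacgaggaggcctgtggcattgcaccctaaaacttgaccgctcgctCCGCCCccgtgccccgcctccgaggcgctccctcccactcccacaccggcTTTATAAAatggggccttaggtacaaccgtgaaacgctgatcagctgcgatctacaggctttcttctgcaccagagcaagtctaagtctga

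The *Cpt1a* window held none of the 9 motifs searched. It was also the only window of the 8 without a GC box, a motif found in 33.1% of all 33469 promoters of the same length, and its GC content was 48.3% against a median of 51.7% over all promoters. The *Ppara* window had a GC content of 73.7% and held a GC box at 241 and at 189 bases before the start site. The *Angptl4* window was the only one with a TATA box (14.2% of all promoters), in overlapping matches on both strands close to the start site. *Hadha*, *Ehhadh* and *Pdk4* held a CCAAT box (37.5% of all promoters), and *Acadm* and *Ehhadh* held TGACG, the half-site of a cAMP response element (21.2%). The element read by PPAR alpha with a retinoid X receptor was searched as an exact direct repeat of the half-site AGGTCA with 1 base between the copies. In this spelling it was in none of the 8 windows and in 0.0538% of all promoters. At a share this low, absence of the element from 8 windows says little. Its half-site alone was in 16.2% of all promoters and in none of the 8. The E-box CACGTG of clock factors (6.42% of all promoters), the D-box (2.24%, searched as TTANGTAA) and the glucocorticoid response element (0.0149%) were absent from the 8 windows as well. These matches describe letters in short windows. Elements with other spellings, and elements outside the windows, were not searched.

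Levels are given as TPM, an abundance scaled for gene length and library size, so that genes can be compared within a library. Calls of higher or lower required a TPM over 2 in 1 of the libraries compared and a ratio of TPM over 2 between them. This is a rule of size and not a test. With sevoflurane, *Ppara* and *Cpt1a* were called higher and *Pdk4* and *Angptl4* lower, so 4 of the 8 genes were called, against 8.75% of the 8270 genes above the TPM minimum (5.04% higher and 3.71% lower). With desflurane, *Ppara* and *Cpt1a* were called higher and none lower, so 2 of the 8 genes were called, against 9.65% of 8372 genes (4.10% higher and 5.55% lower). *Ppara* and *Cpt1a* were therefore higher at 6 h with both agents. *Cpt2*, *Acadm*, *Hadha* and *Ehhadh* were not called with either, and with these shares few calls among so few genes would be looked for. The median log2 change of the 8 genes was 0.04 with sevoflurane and 0.19 with desflurane, beside 0.05 and -0.10 over all 8024 genes whose TPM averaged 2 or more.

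**Figure D1:**
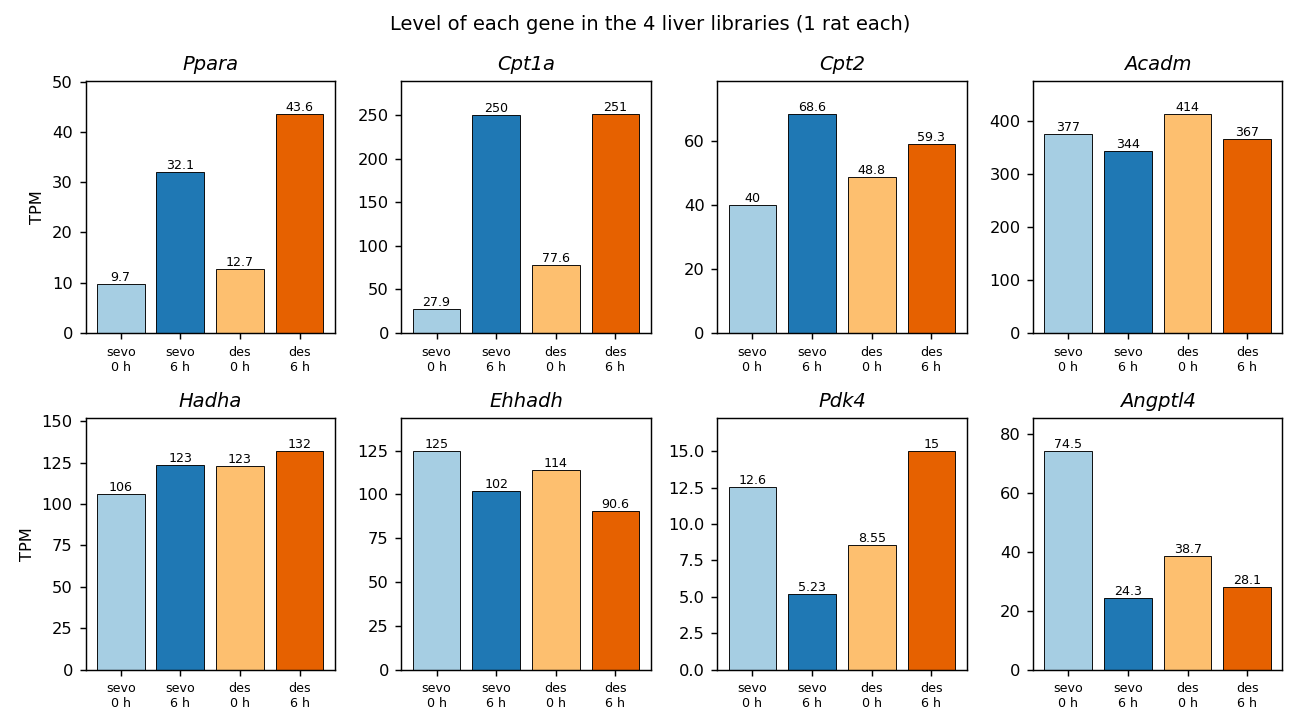
TPM of each of the 8 genes (vertical axis, a separate scale from 0 for each gene) in the 4 libraries, with sevoflurane in blue, desflurane in orange and 6 h in the darker shade. *Ppara* and *Cpt1a* stand higher in both 6 h libraries than in both controls, *Angptl4* stands lower in both, and the highest and lowest values of *Acadm*, *Hadha* and *Ehhadh* differ by 1.21-, 1.25- and 1.38-fold.

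*Ppara*, which encodes PPAR alpha, was at 9.70 TPM in the sevoflurane control, 32.1 after 6 h of sevoflurane, 12.7 in the desflurane control and 43.6 after 6 h of desflurane. Where 4 levels of a gene follow each other below, they are in this order. Both 6 h livers were above both controls, and the lowest 6 h value was well above the highest control value. The 6 h level was 3.31 times the control with sevoflurane and 3.43 times with desflurane, log2 changes of 1.63 and 1.70 on the log2(TPM + 1) scale on which all log2 values are given. The gene spans chr7:126619196-126681752 on the plus strand in the deposited tables, which per the labels use the rat build rn6. In bulk tissue, a change in the share of a cell type and a change in RNA per cell cannot be told apart.

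The coactivators of PPAR alpha were also higher at 6 h with both agents. *Ppargc1a*, a coactivator that is induced in the fasting liver, was at 0.03, 2.48, 0.41 and 9.09 TPM. *Ppargc1b*, its relative, was at 0.90, 2.54, 0.67 and 6.58 TPM. Both control values of each gene were below 1 TPM, so ratios rest on little coverage there, and both genes were also called higher in desflurane 6 h than in sevoflurane 6 h. *Rxra*, the partner receptor, was at 55.5, 68.7, 59.0 and 75.9 TPM and was not called, so that the ratio of *Ppara* to *Rxra* was 0.175 and 0.216 in the controls and 0.467 and 0.574 at 6 h. *Ppard*, which encodes PPAR delta, was called lower with sevoflurane, from 2.44 to 0.93 TPM, and was at 1.26 and 1.28 TPM in the desflurane libraries. Of the 12 regulators above the TPM minimum with sevoflurane, *Ppara* among them, 3 were called higher and 1 lower, beside 5.04% and 3.71% of all genes. With desflurane, 3 of 11 were called higher, *Ppara* again among them, and none lower, beside 4.10% and 5.55%.

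*Cpt1a* was at 27.9 TPM in the sevoflurane control, 250 after 6 h of sevoflurane, 77.6 in the desflurane control and 251 after 6 h of desflurane. The 6 h livers of both agents were at nearly the same level, and both were above both controls, but the controls differed from each other. The 6 h level was 8.94 times the control with sevoflurane (log2 3.12) and 3.24 times with desflurane (log2 1.68). With the controls exchanged between the agents, the log2 change was 1.67 with sevoflurane and 3.13 with desflurane, so the unequal folds lay with the control libraries. *Cpt1a* was the only one of the 8 genes called between the controls (1 of 8, against 2.76% of all genes, 1.96% higher and 0.799% lower), 2.78 times higher in desflurane 0 h. The gene spans chr1:218569510-218629679 on the plus strand.

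Among the 8 genes in each library, *Cpt1a* went from the sixth place in sevoflurane 0 h and the fourth in desflurane 0 h to the second place in both 6 h libraries, below *Acadm*. Its mean depth per base was 65.8, 854, 268 and 914 in the 4 libraries, so its values rest on deep coverage throughout. Red blood cell markers stood in the same order over the 4 libraries: the summed TPM of 4 markers was 453, 1215, 728 and 1343. Of these, *Hba1*, *Hbb* and *Alas2* were called higher with sevoflurane and none with desflurane. The part of red blood cells in the levels of *Cpt1a* and *Ppara* was not tested.

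*Cpt2*, which encodes the inner membrane transferase that releases acyl-CoA in the matrix, was not called with either agent. It was at 40.0, 68.6, 48.8 and 59.3 TPM, with log2 changes of 0.76 and 0.28. Both 6 h values were above both control values, by less than the ratio the rule asks for. Within a library, the level of *Cpt1a* was 0.698 times that of *Cpt2* in sevoflurane 0 h and 1.59 times in desflurane 0 h, and it was 3.64 and 4.23 times that of *Cpt2* in the 6 h libraries. *Cpt2* spans chr5:127505646-127523016 on the minus strand.

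The rest of the carnitine shuttle was mostly not called. *Slc25a20*, the carrier that exchanges acylcarnitine for carnitine across the inner membrane, was at 65.8, 86.7, 79.4 and 84.3 TPM. *Slc22a5*, the carnitine importer of the plasma membrane, was called higher with sevoflurane (2.68 to 9.62 TPM) and not with desflurane (4.85 to 7.60 TPM). *Crat*, the acetyltransferase, was at 11.2, 10.1, 12.9 and 23.3 TPM and was called higher in desflurane 6 h than in sevoflurane 6 h, while *Crot*, the peroxisomal octanoyltransferase, was at 60.8, 56.9, 117 and 63.7 TPM. The other isoforms of the outer membrane enzyme, *Cpt1b* of muscle and *Cpt1c* of brain, were below 1 TPM in every library. The carnitine synthesis genes *Bbox1* (89.3 to 101 TPM), *Tmlhe* (8.08 to 9.88 TPM) and *Aldh9a1* (141 to 160 TPM) were not called in any comparison. Of the 9 shuttle genes above the TPM minimum, which include *Cpt1a* and *Cpt2*, 2 were called higher with sevoflurane (*Cpt1a* and *Slc22a5*) and 1 with desflurane (*Cpt1a*). The shares over all genes were 5.04% and 4.10%, and none of the 9 was called lower. Outside *Cpt1a*, the only call was thus that of *Slc22a5* with sevoflurane.

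Inside the mitochondria, the genes of beta-oxidation were abundant and were not called. *Acadm*, the medium-chain acyl-CoA dehydrogenase, was the most abundant of the 8 genes in every library, at 377, 344, 414 and 367 TPM. Both 6 h values were below both controls, with log2 changes of -0.13 and -0.17 beside a log2 difference of 0.14 between the controls. *Hadha*, the alpha subunit of the trifunctional protein that carries out the hydratase and dehydrogenase steps on long chains, was at 106, 123, 123 and 132 TPM, with the sevoflurane 6 h value at the level of the desflurane control. The beta subunit *Hadhb*, the thiolase of the same complex, was at 129, 129, 143 and 142 TPM. The ratio of alpha to beta subunit stayed between 0.820 and 0.956 over the 4 libraries. *Acadm* spans chr2:260124418-260148589 on the minus strand and *Hadha* chr6:27589840-27628921 on the plus strand.

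None of the 17 listed genes of mitochondrial beta-oxidation, *Acadm* and *Hadha* among them, was called with either agent, between the controls or between the 6 h libraries. Over all genes, 8.75% were called with sevoflurane, 9.65% with desflurane, 2.76% between the controls and 3.99% between the 6 h libraries. With shares this low, few calls among 17 genes would be looked for. Their median log2 change was 0.00 with sevoflurane and -0.06 with desflurane, and their summed TPM was 2901, 2996, 3358 and 3145. The largest change was that of *Eci1*, the enoyl-CoA isomerase, with 93.2 TPM in sevoflurane 0 h and between 154 and 165 TPM in the other libraries. The ratio of *Cpt1a* to *Acadm* was 0.0740 and 0.187 in the controls and 0.726 and 0.684 at 6 h.

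*Ehhadh*, the bifunctional enzyme of the peroxisome, was at 125, 102, 114 and 90.6 TPM. Both 6 h values were below both controls, with log2 changes of -0.29 and -0.32, and the gene was not called. It spans chr11:82945104-82978364 on the plus strand. The list made for peroxisomal beta-oxidation had 18 of its 19 genes above the TPM minimum with each agent. With sevoflurane 3 of them, all acyl-CoA thioesterases, were called higher and none lower, beside 5.04% and 3.71% of all genes. These were *Acot12* (58.3 to 132 TPM), *Acot4* (5.49 to 11.9 TPM) and *Acot3* (1.56 to 3.37 TPM). *Acot3* and *Acot4* are close relatives, so how reads were split between them is uncertain, and both were also called higher in the desflurane control than in the sevoflurane control, and *Acot12* was at 69.9 and 138 TPM with desflurane, a ratio of 1.98 that just missed the rule. With desflurane 1 of the 18 was called higher and none lower, beside 4.10% and 5.55% of all genes. It was *Pex11a*, a gene of peroxisome division (6.23 to 13.5 TPM).

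Of the ketone body enzymes, *Bdh1*, *Acat1* and *Oxct1* were not called with either agent. *Bdh1*, which makes beta-hydroxybutyrate, was at 206, 157, 270 and 208 TPM, with log2 changes of -0.40 and -0.37. *Acat1*, the thiolase at the head of the path, stayed between 150 and 175 TPM, and *Oxct1*, with which other tissues use ketone bodies, between 1.18 and 1.86 TPM.

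The ketone list had 7 genes above the TPM minimum with each agent. With sevoflurane 0 were called higher and 1 lower, beside 5.04% and 3.71% of all genes. With desflurane 1 was called higher and 1 lower, beside 4.10% and 5.55%. These calls were in transporters, but with such shares few calls among 7 genes would be looked for. *Slc16a1*, a carrier of lactate, pyruvate and ketone bodies, was called lower with both agents, at 69.7, 34.0, 87.6 and 42.2 TPM. Both 6 h values were below both controls. *Slc16a6*, an exporter of ketone bodies in the fasting liver, was at 2.13, 3.21, 1.07 and 11.6 TPM. By the rule of size it was called higher with desflurane and not with sevoflurane, and the difference between agents was not tested. It was also called lower in the desflurane control than in the sevoflurane control, which adds to its ratio with desflurane. *Slc16a7* stayed between 19.0 and 24.5 TPM.

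**Figure D2:**
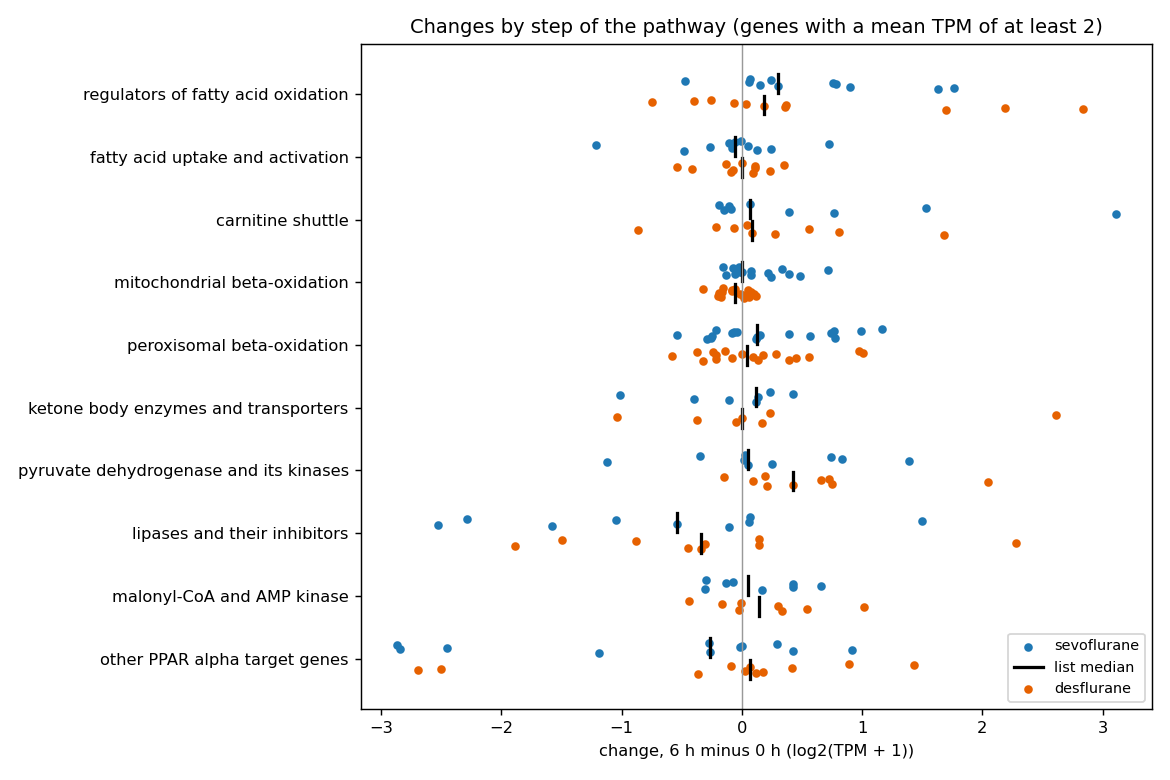
Log2 change from 0 h to 6 h (horizontal axis, log2(TPM + 1)) of the genes of 10 lists whose TPM averaged 2 or more, with sevoflurane as blue points, desflurane as orange points and each list's median as a black bar. Mitochondrial beta-oxidation is the narrowest list, between -0.32 and 0.72, and the lists of lipases and of other PPAR alpha target genes spread the most.

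*Pdk4*, the kinase that switches off pyruvate dehydrogenase when fatty acids are burned, was the least abundant or next to least abundant of the 8 genes in every library. It was at 12.6 TPM in the sevoflurane control, 5.23 after 6 h of sevoflurane, 8.55 in the desflurane control and 15.0 after 6 h of desflurane. The sevoflurane 6 h liver was below both controls and the desflurane 6 h liver above both. With sevoflurane the gene was called lower (log2 -1.12), with desflurane the log2 change was 0.75 and not called. With the controls exchanged, the log2 changes were -0.62 and 0.24 and neither was called. *Pdk4* was the only one of the 8 genes called between the 6 h libraries (1 of 8, against 3.99% of all genes, 2.21% higher and 1.77% lower), 2.88 times higher with desflurane. It spans chr4:30546772-30556774 on the minus strand.

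The value for desflurane 6 h depends on which row of the table is read. Beside named genes, the tables list loci assembled from the reads, and the locus on the strand of *Pdk4* was at 15.5, 6.42, 10.98 and 12.1 TPM. Read from these loci, the log2 change with desflurane was 0.13 and the log2 difference between the 6 h libraries was 0.83, in place of 0.75 and 1.36, and the call between the 6 h libraries was lost. The low value of sevoflurane 6 h was present in both.

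Among its neighbours in the path, *Pdk2*, the other kinase of note in liver, was at 23.5, 28.1, 22.0 and 29.9 TPM and was not called. *Pdp2*, a phosphatase that reverses the kinases, was called higher with both agents, at 11.8, 32.7, 10.9 and 48.2 TPM, with both 6 h values above both controls. *Pdp1*, the other phosphatase, was called lower with desflurane (2.72 to 1.30 TPM) and was at 1.47 and 1.93 TPM with sevoflurane. *Pdhb*, a subunit of the dehydrogenase, was at 55.1, 99.0, 54.6 and 86.7 TPM, and *Dlat*, another, at 9.96, 17.3, 10.6 and 18.1 TPM; neither reached the ratio.

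*Angptl4*, a secreted inhibitor of lipoprotein lipase and a PPAR target in the fasting liver, was at 74.5 TPM in the sevoflurane control, 24.3 after 6 h of sevoflurane, 38.7 in the desflurane control and 28.1 after 6 h of desflurane. Both 6 h livers were below both controls and close to each other, whereas the controls differed 1.92-fold. With sevoflurane *Angptl4* was called lower, 3.06-fold (log2 -1.58), and with desflurane the log2 change was -0.45 and not called. With the controls exchanged, the log2 changes were -0.65 and -1.38, and the gene was then called lower with desflurane and not with sevoflurane. It spans chr7:18627814-18634043 on the minus strand.

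*Angptl8*, which also inhibits lipoprotein lipase and is induced by feeding, was called lower with both agents, at 67.3, 10.8, 35.3 and 8.80 TPM. Inside the liver cell, *Pnpla2*, the lipase that releases fatty acids from stored triglyceride, was called higher with both agents (8.94, 27.1, 10.6 and 55.4 TPM). *G0s2*, its inhibitor, was called lower with both (281, 56.9, 172 and 60.5 TPM), so the ratio of *Pnpla2* to *G0s2* was 0.0318 and 0.0618 in the controls and 0.476 and 0.915 at 6 h. *Abhd5*, its activator, was called lower with sevoflurane (34.15 to 16.03 TPM) and was at 28.1 and 14.8 TPM with desflurane. The list of lipases and their inhibitors, which includes *Angptl4*, had 9 genes above the TPM minimum. Sevoflurane gave 1 call of higher and 4 of lower, *Angptl4* among the lower (5.04% and 3.71% of all genes). Desflurane gave 1 of higher and 2 of lower (4.10% and 5.55%).

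Of the targets of PPAR alpha outside the 8 genes, some were called higher and some lower. *Cyp4a2* (558, 76.9, 1075 and 165 TPM) and *Cyp4a3* (503, 91.0, 966 and 170 TPM), fatty acid omega-hydroxylases, were called lower with both agents, with both 6 h values of each below both controls. This pair is nearly identical in sequence, and the split of reads between its members is uncertain. *Cyp4a1*, of the same family, was called higher with sevoflurane (7.55 to 15.1 TPM) and was at 13.3 and 13.6 TPM with desflurane. *Fgf21*, a fasting hormone of the liver, was called lower with sevoflurane (25.1 to 2.59 TPM), but its sevoflurane control stood 4.23 times above the desflurane control, and with desflurane it was at 5.95 and 5.52 TPM. *Plin2*, which coats lipid droplets, was at 199, 86.6, 270 and 209 TPM and was called lower with sevoflurane. *Gpd1*, the glycerol phosphate dehydrogenase, was called higher with desflurane (196 to 529 TPM) and was at 220 and 269 TPM with sevoflurane. Of the targets above the TPM minimum, 5 of 12 were called with sevoflurane, 1 of them higher, beside 8.75% of all genes. With desflurane 4 of 13 were called, 2 of them higher, beside 9.65%.

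Upstream of *Cpt1a*, no gene of malonyl-CoA turnover was called: *Acaca* (19.1 to 29.7 TPM) and *Acacb* (8.44 to 13.1 TPM), which make malonyl-CoA, and *Mlycd* (36.6 to 56.3 TPM), which removes it. *Prkaa1*, a catalytic subunit of AMP kinase, was called higher with desflurane, from 4.28 to 9.66 TPM, and was at 4.23 and 7.28 TPM with sevoflurane. The list of malonyl-CoA and AMP kinase genes had 8 above the TPM minimum. Of these, 0 were called with sevoflurane and 1 with desflurane, beside 8.75% and 9.65% of all genes. In fatty acid uptake and activation, *Acsl3*, an acyl-CoA synthetase, was the only call of 6 h against 0 h, lower with sevoflurane (12.4 to 4.78 TPM). That is 1 of 11 genes above the TPM minimum with sevoflurane and 0 of 12 with desflurane. With the shares over all genes, few calls in lists of this size would be looked for. *Cd36*, a fatty acid transporter of the cell surface, was called higher in desflurane 6 h than in sevoflurane 6 h (10.3 against 5.07 TPM).

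Over all 10 lists, 129 of 132 listed genes were found, and 112 were above the TPM minimum with sevoflurane and 114 with desflurane. With sevoflurane 11 were called higher (9.82%, against 5.04% of all genes) and 12 lower (10.7%, against 3.71%). With desflurane 11 were called higher (9.65%, against 4.10%) and 6 lower (5.26%, against 5.55%). The genes called higher with both agents were *Ppara*, *Ppargc1a*, *Ppargc1b*, *Cpt1a*, *Pdp2* and *Pnpla2*, and those called lower with both were *Slc16a1*, *Angptl8*, *G0s2*, *Cyp4a2* and *Cyp4a3*. The lists and the 8 genes were chosen with results of these libraries known, so these counts are a description.

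**Figure D3:**
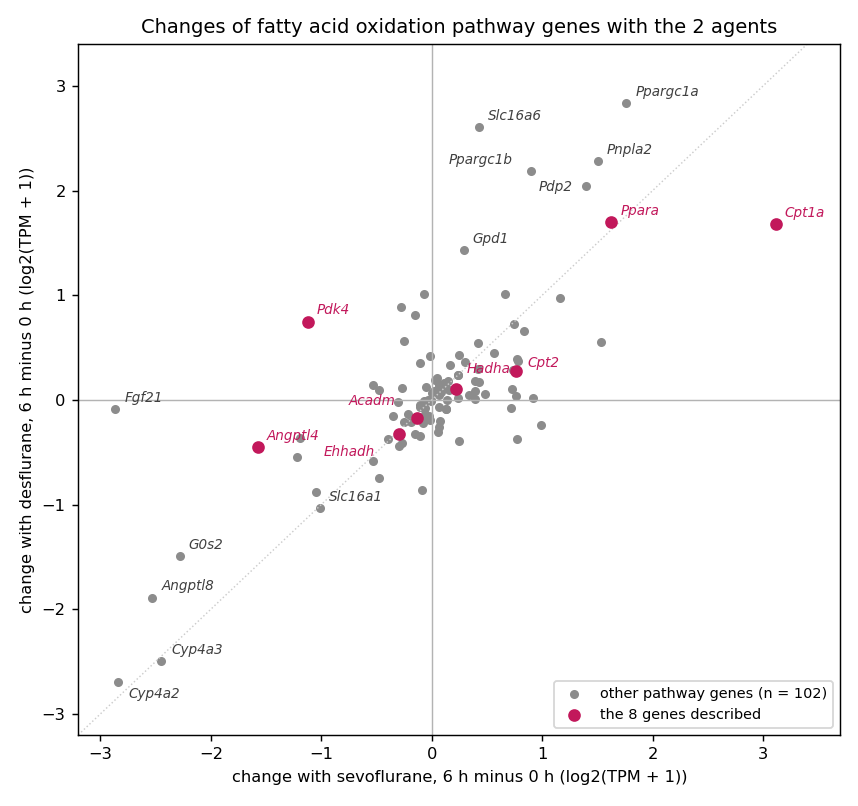
Log2 change from 0 h to 6 h with sevoflurane (horizontal axis) and with desflurane (vertical axis), log2(TPM + 1), for the 8 genes in magenta and 102 other genes of the 10 lists in grey, with a dotted line where both changes are equal. *Ppara* lies close to the line at 1.63 and 1.70, *Cpt1a* to the right of it at 3.12 and 1.68, and *Pdk4* at -1.12 and 0.75 in the quadrant of opposite signs.

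A limma fit over all 4 libraries, 2 rats at each hour, with the agent as a block, tested the change that the agents had in common. The fit leaves 1 residual degree of freedom per gene and borrows 10.9 from the spread of all 8024 genes, so its p-values rest largely on that shared spread. *Ppara* rose by a log2 of 1.66 (SE 0.18, limma adjusted p = 5.59e-05) and *Cpt1a* by 2.40 (SE 0.25, limma adjusted p = 4.59e-05). *Angptl4* fell by 1.01 on the log2 scale (SE 0.23, limma adjusted p = 0.0131). All of these calls were lost when genes of any mean TPM above 0 were fitted, where the limma adjusted p was 0.0560 for *Ppara*, 0.141 for *Cpt1a* and 0.303 for *Angptl4*. The other 5 genes did not pass, with limma adjusted p = 0.0769 for *Cpt2* (log2 0.52), 0.213 for *Ehhadh* (log2 -0.31), and between 0.539 and 0.837 for *Acadm*, *Hadha* and *Pdk4*. Thus 3 of the 8 genes passed, 2 higher and 1 lower, against 8.62% of all genes (4.69% higher and 3.94% lower). Before adjustment, 5 of the 8 had p under 0.05 in limma, against 19.9% of all genes.

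Of the 3 genes that passed, *Cpt1a* had the log2 changes that differ most between the agents, by 1.43. From the residual of each gene alone, the standard error would be 0.72 for *Cpt1a*, 0.56 for *Angptl4* and 0.04 for *Ppara*. In the fit it was 0.246, 0.225 and 0.175, so borrowing narrowed it for *Cpt1a* and *Angptl4* and widened it for *Ppara*. For *Angptl4*, the call was lost without the agent block (limma adjusted p = 0.0763), with libraries scaled by the median of ratios (0.0530) and without a trend in the prior (0.0919). Leaving out the sevoflurane control, the log2 change was 1.68 for *Cpt1a*, which still passed, and -0.55 for *Angptl4*, which did not (limma adjusted p = 0.305). Time under anesthesia and the hour of harvest enter this fit as 1 term.

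Of the 110 pathway genes in the fit, 24 passed, beside 8.62% of all genes. Outside the 8 genes, those that rose included *Ppargc1a* (log2 2.30), *Pnpla2* (1.89), *Pdp2* (1.72), *Slc16a6* (1.52, limma adjusted p = 0.0319), *Acot12* (1.07), *Slc22a5* (1.04) and *Gpd1* (0.86). Those that fell included *Cyp4a2* (-2.77), *Cyp4a3* (-2.48), *Angptl8* (-2.21), *G0s2* (-1.89), *Slc16a1* (-1.02) and *Acsl3* (-0.88). Some of these changes were unequal between the agents. *Slc16a6* (log2 0.425 with sevoflurane and 2.609 with desflurane) and *Gpd1* (0.290 and 1.429) were called by the rule of size with desflurane alone. *Slc22a5*, *Acot12* and *Acsl3* were called by it with sevoflurane alone. *Pdhb* and *Dlat* of the pyruvate dehydrogenase complex and the peroxisomal *Acox2* and *Acaa1a* passed with changes below the ratio of the rule. No gene of mitochondrial beta-oxidation passed.

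Some of the 8 genes also differed between libraries of the same hour. The desflurane control was higher than the sevoflurane control by a log2 of 0.36 for *Ppara* and lower by 0.51 for *Pdk4* and 0.93 for *Angptl4*, and the other differences, *Cpt1a* aside, were at most 0.28 in size. Over all genes the median difference between the controls was 0.12, which scaling by the median of ratios removes. With this scaling, *Cpt1a* was still called (log2 1.31) and *Angptl4* was called lower in the desflurane control (log2 -1.05). Between the 6 h libraries, the log2 difference was 0.43 for *Ppara*, 0.01 for *Cpt1a*, -0.21 for *Cpt2* and 0.20 for *Angptl4*.

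The profile of *Ppara* over the 4 libraries was most like that of *Hps4*, a gene of lysosome-related organelles, at a Euclidean distance of 0.10 between centred log2 levels among 8016 genes. *Hps4* was at 2.04, 9.22, 3.14 and 12.9 TPM. *RGD1562310* (distance 0.19) and *Trib1*, a pseudokinase gene (distance 0.21; 4.52, 14.9, 4.79 and 19.6 TPM), came next. The profile of *Cpt1a* was most like that of *Nr1d1*, which encodes the clock repressor REV-ERB alpha, at a distance of 0.41. *Nr1d1* was at 0.41, 7.65, 2.41 and 7.95 TPM, so it too differed between the controls and stood at like levels in both 6 h libraries. *Zbtb16* (distance 0.56) and *Nceh1*, a cholesterol ester hydrolase gene (distance 0.57), followed. With 4 libraries, likeness of profile is a description.

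**Figure D4:**
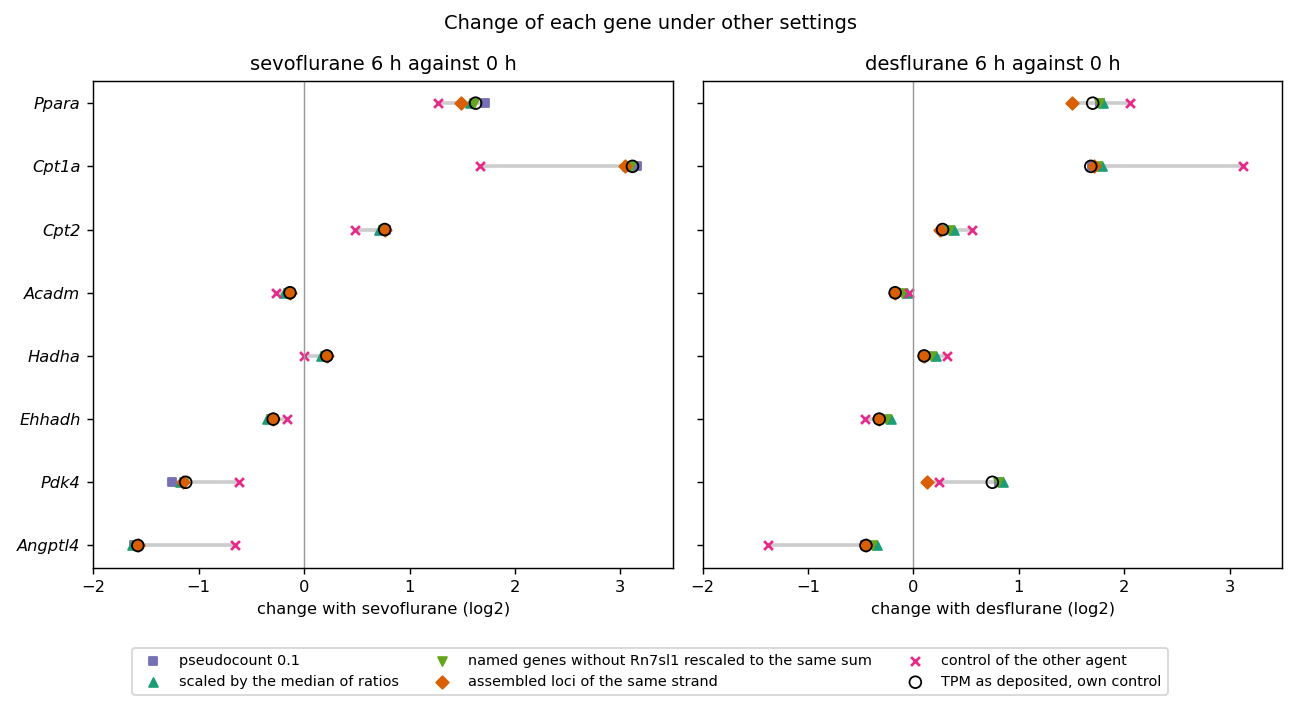
Log2 change of each of the 8 genes (horizontal axis) with sevoflurane (left) and desflurane (right) under other ways of processing, with the reported value as an open circle and the range as a grey bar. The control of the other agent moves *Cpt1a* and *Angptl4* the most, and the assembled locus moves *Pdk4* with desflurane from 0.75 to 0.13.

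The libraries fitted the label of liver. All 8 hepatocyte markers were found, with a summed TPM between 96529 and 107882, and none was called with either agent. Of markers of neighbouring tissues, the 6 of fat had a summed TPM between 18.8 and 21.7, most of it *Cfd* (15.5 to 19.7), with *Fabp4* between 2.01 and 3.14 and *Adipoq*, *Lep* and *Plin1* listed at 0 in every library. The summed TPM of muscle and pancreatic markers reached at most 0.57 and 1.68. The summed TPM of Kupffer cell markers was between 290 and 375, of endothelial markers between 50.5 and 60.4, of stellate cell markers between 34.3 and 39.3, of leukocyte markers between 8.16 and 10.6 and of cholangiocyte markers between 7.05 and 8.67. Red blood cell markers, described beside *Cpt1a*, varied most, 2.96-fold.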

How the data were processed

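RNA-seq was performed on 4 rat livers, 1 library for each agent at 0 h and at 6 h, grouped by their labels. Per the labels, liver pieces were kept in RNAlater, RNA was extracted by RNeasy Midi columns, and libraries were made with a stranded TruSeq total RNA kit. The submitters' processing notes name HISAT2, SAMtools, StringTie and the build rn6, with no version given in the sources used here.

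A StringTie gene abundance table per library was deposited by the authors. The deposited TPM column was handled as a score, since assembled loci alone sum to 1000000 in each library and rows of named genes restate them and add between 766045 and 789239. Of the 32 values of the 8 genes, 20 equalled the assembled locus of the same strand within 1%. FPKM and coverage (a signal, mean depth per base), also deposited by the authors, gave the aligned bases, between 3.50 and 5.57 Gb per library, at which a TPM of 2 is a mean depth of 4.72 to 7.28. Read counts are absent from the tables, so counting error cannot be stated, and sevoflurane 0 h, the shallowest library, has the least precise low values.

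Rows of 1 symbol were summed and rows spanning 200 bp or less left out, which gave 16999 symbols. A gene was called when its TPM was above 2 in the higher library and the ratio above 2. Log2 changes used log2(TPM + 1), which understates changes of low values. The common change was fitted with limma 3.58.1 in R 4.3.3 (eBayes with trend, two-sided, Benjamini-Hochberg over the 8024 genes whose TPM averaged 2 or more). The steps were tested on simulated data. The 8 genes, the lists and the tests were chosen with earlier results of these data known. The genes named were the 8, list members called with both agents, up to 3 called with each agent in each list, genes of the carnitine and ketone lists, and the 3 nearest profiles of *Ppara* and *Cpt1a*. Others (*Rxra*, *Pdk2*, *Pdhb*, *Dlat*, *Eci1*, *Hadhb*, *Acox2*, *Acaa1a*, *Abhd5*, *Cd36*, *Plin2*, *Ppard*, *Cyp4a1*, *Acaca*, *Acacb*, *Mlycd* and the markers) were added after their values were seen. Some genes under this rule are not reported here. *Lmf1*, *Plin4* and *Gyk* of the pathway lists were not analysed here. Coordinates of genes are those of the deposited tables, and no exon annotation was used. Alternatives were other ratios, TPM minimums, pseudocounts, scalings, controls, rows and fits.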

Additional observations from a re-analysis of the deposited data

Results flagged for a closer look

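The values of *Pdk4* lay in opposite directions from the controls with the agents, called lower with sevoflurane and not called with desflurane. Its log2 change with desflurane minus that with sevoflurane was 1.87, on 1 library per group (12.6 to 5.23 TPM with sevoflurane and 8.55 to 15.0 TPM with desflurane). The difference was not tested. Read from the assembled loci, the change with desflurane was smaller, a log2 of 0.13 against -1.15 with sevoflurane.

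Outside the rows of named genes, a locus assembled on the other strand met the end of *Pdk4* in sevoflurane 6 h, at 10.95 TPM, and in none of the other libraries. It spans chr4:30514537-30546775 on the plus strand and overlaps *Pdk4* by 4 bases. The library is the one in which *Pdk4* was lowest, at 5.23 TPM, and the part of this locus in that value was not tested.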

How the results depend on the processing

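*Ppara* and *Cpt1a* were called higher with both agents at every ratio, TPM minimum and scaling tried and with the control of the other agent. Exchanging the controls moves a log2 change by the difference between them, so all 16 such values of the 8 genes moved by more than the SD of the controls by construction. Of the 160 other recomputed log2 values, 6 moved by more than that SD, and no called value changed sign. Part of this was fixed in advance. Each of the 8 genes had 1 row per library, so reading the highest row of a symbol alone could not move a value. The SD rests on 2 controls and is wide for *Cpt1a* (1.02 on the log2 scale), so few moves say little about stability. With the control of the other agent, 2 of the 8 genes were called with sevoflurane in place of 4. At a ratio of 1.5, 3 and with no TPM minimum, all genes called were 1924, 284 and 3028 with sevoflurane (724 as reported) and 2027, 311 and 3188 with desflurane (808 as reported), and 529 with desflurane at a TPM above 5. Pathway genes called were 37 at a ratio of 1.5 and 11 at a ratio of 3 with sevoflurane (23 as reported), and 32 and 11 with desflurane (17 as reported). Between the controls, 2 of the 8 genes were called at a ratio of 1.5, with the median of ratios and with sums rescaled, and 0 at a ratio of 3, in place of 1; between the 6 h libraries, 0 at a ratio of 3. Looser and stricter rules change counts by construction.

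Scaling by the median of ratios moved the share of called genes that were higher from 42.5% to 53.4% with desflurane, and from 64.7% to 76.5% among pathway genes. In limma, with genes of any mean TPM above 0 included (13629 fitted), 0 of the 8 genes passed after adjustment and 5 had an unadjusted p under 0.05. Over all genes, 25 passed then; the cause was not tested. Without a trend 440 genes passed. Over 10 alternative fits, limma adjusted p ranged from 1.76e-04 to 0.0560 for *Ppara*, from 2.55e-04 to 0.141 for *Cpt1a* and from 0.0133 to 0.305 for *Angptl4*, which passed in 3.

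Fits that leave out 1 library, chosen after seeing the data and made without the agent block, assume that the lone library of an hour varies as the others do. Between 163 genes (without sevoflurane 0 h) and 591 (without sevoflurane 6 h) passed, with 283 without desflurane 0 h and 411 without desflurane 6 h, and 2 or 3 of the 8 genes did. *Pdk4* then had a common change of 0.07 without sevoflurane 0 h and 0.49 without sevoflurane 6 h, between -0.87 (without desflurane 6 h) and 0.495 over the 4 fits, in place of -0.19, and passed in none. The agent block pairs 0 h with 6 h within an agent; without it, 488 genes and 2 of the 8 passed. Groups of 1 library share no further replicate pairing.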
